A study of Mus musculus with 2 samples.

Results

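The genes described here build the scaffold of the striated muscle sarcomere in mouse skin. They are 43 of the 24421 gene symbols in the table of counts, listed by name as thin filament, titin, M-band, Z-disc, costamere and chaperone genes, without the myosin chains and the troponins. The list gives genes by name and uses no threshold on values. All 43 were found in the table, all had more than 3 counts in both libraries, and all passed the filter on low values used below.

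RNA-seq was performed on whole-layer skin of wild-type C57BL6/J mice, with 1 library of skin stretched for 5 days at a labelled strain of 33% (stretched skin) and 1 library of skin kept without strain for the same time (control skin). Per the methods the strain was increased by a step each day. The mice of the study were 8-week-old females with hairs in telogen, the resting phase of the hair cycle, and skin under the glued parts of the device was discarded at harvest. The number of mice in each library, the place of each piece on the back and whether the control library came from mice without a device or with an unstrained one are not given for RNA-seq in the sources used here. The control library held 14152379 counts and the stretched library 11648655, and no value has a replicate check.

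In a sarcomere, thin filaments of actin, tropomyosin and nebulin are anchored in the Z-disc by alpha-actinin, and titin runs from the Z-disc to the M-band, where myomesins tie the thick filaments together. Desmin filaments and the dystrophin-glycoprotein complex at the costamere link the outer sarcomeres to the membrane and the matrix, which is one route of force between fibre and surrounding tissue. Many of these proteins exist as isoforms that differ between fast, slow, cardiac and developing muscle. Mouse back skin contains such muscle as the panniculus carnosus, a thin sheet under the fat layer.

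Levels are given as FPKM, counts per kilobase of exon in a library scaled to a common total, which can be compared between genes. Differences are given as the log2 ratio of CPM, counts scaled to that total without the length, stretched to control skin, so that positive values are higher in stretched skin. Beside each ratio stands its exact 95% interval by the method of Clopper and Pearson. It holds counting error alone, so it compares these libraries, not the conditions.

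Together the 43 genes took nearly the same share of both libraries, 2.95% of the counts for control and 2.77% for stretched skin. Acta1 alone held 30.6% and 31% of these counts. The median log2 ratio of the 43 genes was -0.11, and that of all 16255 genes measured (more than 3 counts in either library) was -0.12. The genes did not move as a block, since single values ranged from -2.11 for Mybpc2 to 1.82 for Actc1. By the fold rule of the study's methods, 2 of the 43 genes (4.65%) were upregulated, Actc1 and Myoz2, where 2.61% of all 10908 genes passing the filter were. Another 2 (4.65%) were downregulated, Mybpc2 and Myoz3, against 2.43% of all genes. The rule asks that the FPKM values of both libraries multiply to more than 10 and that their ratio reach 2 or stay under 0.5 or equal it, here with 1 added to each FPKM.

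Counting intervals were entirely above 0 for 14 genes (32.6%) and entirely below 0 for 24 (55.8%), while 5 included 0. Over all genes measured these shares were 18.1% and 33.5%, and over the 7860 genes whose counts summed to 611 or more, the lowest sum among the 43, they were 21.5% and 46.2%. Intervals narrow with depth, and the 43 genes include some of the most counted ones, so a size rule was counted too. A ratio at least 1.5-fold higher was found for 6 of the 43 genes (14%) and for 5.9% of those 7860 genes, and a ratio at least 1.5-fold lower for 12 (27.9%) and 8.41%. The quartiles of the log2 ratio were -0.61 and 0.30 for the 43 genes and -0.32 and 0.10 for the 7860, which include the 43. With 1 library per condition none of these shares has a test across samples. The split of the 43 intervals depends on the scaling, with 17 above and 18 below 0 under TMM, and 32 above and 7 below when the libraries were scaled to the muscle markers described below. These scalings move every gene alike, and the median of all genes was then -0.017 and 0.55.

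**Figure D1:**
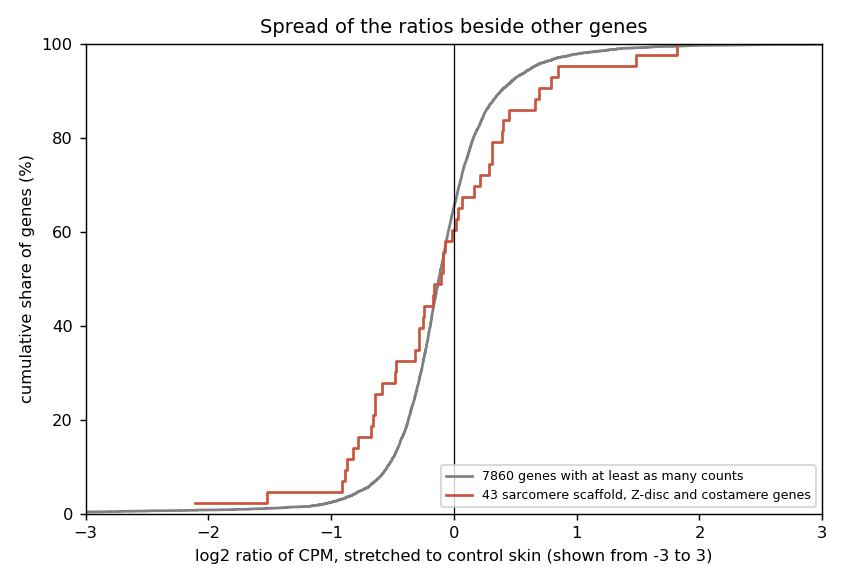
Cumulative share of genes (%, vertical axis) by log2 ratio of CPM, stretched to control skin (horizontal axis), for the 43 genes (red) and the 7860 genes with at least 611 counts (grey). The curves cross near their medians of -0.11 and -0.12, and the red curve is wider on both sides.

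The scaling and the mixed tissue bear on every direction given here. Scaling by edgeR's TMM factors would add 0.10 to each log2 ratio, and DESeq2's median of ratios 0.11. With either of these, or with upper-quartile scaling, Acta1, Tpm2, Fhl1 and Sgca change sign, and under the DESeq2 factors so does Neb. The other 38 genes keep their sign under these 3 scalings. In bulk skin, fewer muscle fibres and less of an RNA per fibre cannot be told apart.

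The muscle markers did not move together either. Of 14 mature skeletal muscle markers, 4 had intervals above 0 and 10 below, with a median of -0.51, and their summed level was 26470 CPM in control and 16590 CPM in stretched skin. These markers include fast-fibre myosins and troponins but no slow-fibre form of either. Their sum, and the scaling to it, therefore does not stand for all fibres alike. Myh4, the fastest myosin heavy chain of mouse limb and trunk muscle, had 91029 and 3156 counts in control and stretched skin (-4.57), and without it the sum of the other 13 was lower by 0.30 on the log2 scale. The other fast myosins were higher, Myh1 with 31133 and 54759 counts (1.10) and Myh2 with 7178 and 16239 (1.46). All 8 markers of developing muscle were higher, from 82.4 CPM in sum to 1393 CPM. Smooth muscle and heart use some of the 43 genes too. The 8 smooth muscle markers summed to 920 and 934 CPM, with 5 intervals above 0 and 3 below, from Smtn at -0.58 to Cnn1 at 0.65. The 6 heart markers summed to 2.90 and 4.12 CPM over the 4 that were measured, and Myl7 had no count in either library, which allows up to 0.212 and 0.258 CPM. Fibroblast markers summed to 40580 and 76640 CPM, with all 5 higher. Most of this sum was collagen RNA, from Col1a1, Col1a2 and Col3a1, each with a log2 ratio of 0.87 or more. Dcn and Pdgfra were nearer to level, at 0.056 and 0.18, so the sum does not measure the number of fibroblasts. Macrophage markers summed to 325 and 727 CPM, with all 5 higher, and adipocyte markers to 543 and 314 CPM, with all 4 lower. The 4 keratinocyte markers, with sums of 13800 and 14710 CPM, show the tissue to be skin. The part of these differences in the results below was not tested.

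**Figure D2:**
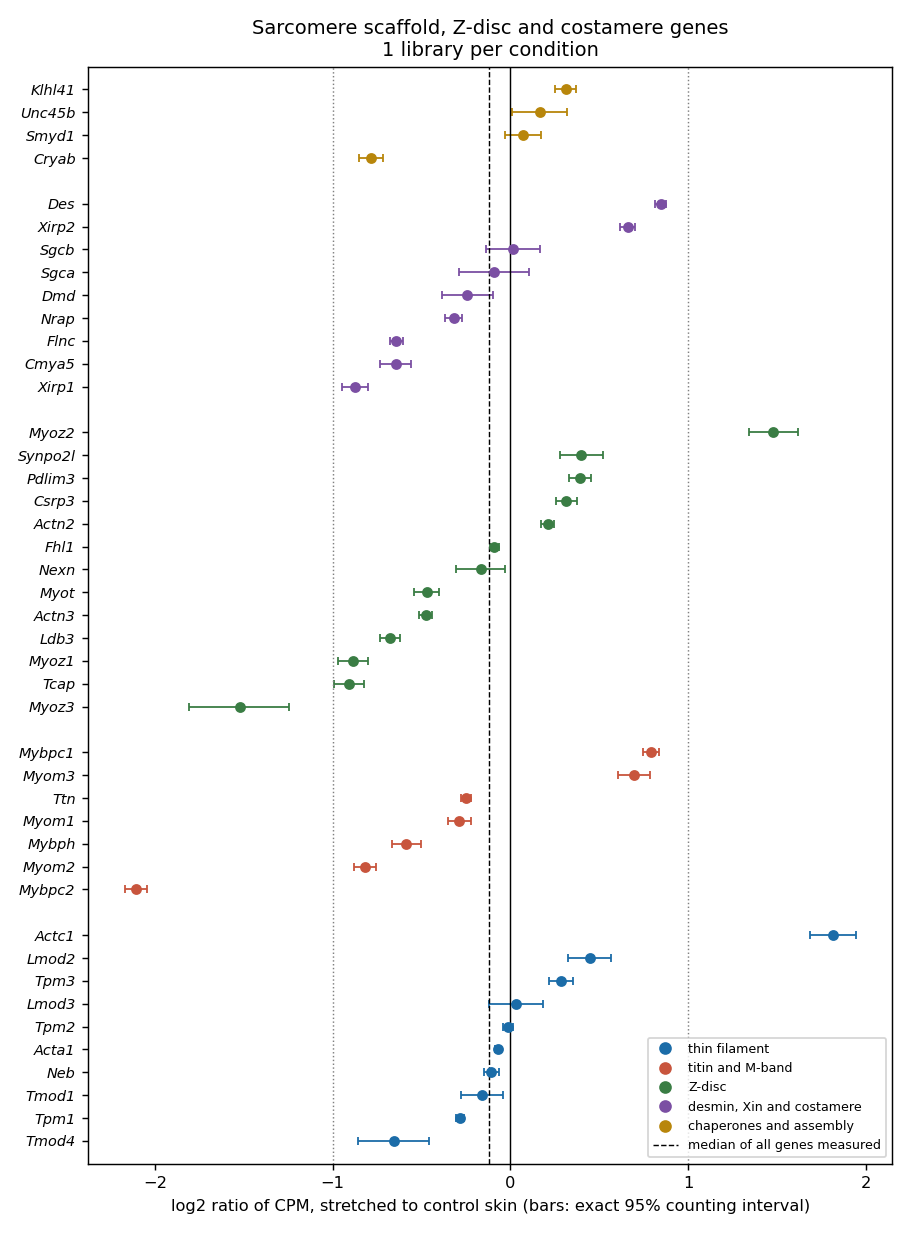
Log2 ratio of CPM, stretched to control skin (horizontal axis), for each of the 43 genes (vertical axis), coloured by role group, with exact 95% counting intervals as bars. The dashed line marks the median of all genes measured (-0.12) and the dotted lines a 2-fold difference. Mybpc2 (-2.11) and Myoz3 (-1.52) lie beyond the left line, Actc1 (1.82) and Myoz2 (1.48) beyond the right.

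Thin filament genes went both ways around a median of -0.04, with 3 of 10 intervals above 0 and 5 below. For this and the group counts that follow, the shares to compare are 21.5% above and 46.2% below 0, over the 7860 genes with at least 611 counts. The widest difference was in actin. Acta1, which encodes skeletal alpha-actin, the main actin of adult skeletal fibres, had 127849 counts in control and 100096 in stretched skin. Its levels of 5881 and 5594 FPKM were the highest of the 43 genes in both libraries, and its log2 ratio was -0.07 (-0.08 to -0.06), a sign that turns with the scaling. Actc1, which encodes cardiac alpha-actin, used by the heart and by developing skeletal muscle, had 655 and 1897 counts. Its level was 28.6 FPKM in control and 101 FPKM in stretched skin, and its ratio of 1.82 (1.69 to 1.94) was the highest of the 43. Actc1 nevertheless remained a small part of the sarcomeric actin RNA, 0.484% of the summed FPKM of both genes in control skin and 1.77% in stretched skin. On mm10, Acta1 lies on chromosome 8 from 123891769 to 123894751 and Actc1 on chromosome 2 from 114047282 to 114053548, and of their stretches of 76 bases, the length of a read, 0.329% of those in Acta1 and 0 in Actc1 also occur in another gene.

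The bases in front of the starts of both actin genes are shown because they are isoforms of nearly one protein whose RNA differed unequally, and those of Myoz2, Mybpc1 and Mybpc2 because they belong to the families described below with the widest shifts. Each run holds the 250 bases before a RefSeq start on GRCm38.p6 (mm10), written 5′ to 3′ on the strand of the gene. Capitals mark matches, on either strand, to the CArG box bound by serum response factor, to the MEF2 site, to CAGCTG, an E-box bound by myogenic factors, to CATTCCT, the M-CAT element bound by TEAD factors, and to TATAAA, a core promoter element.
Acta1 (chr8:123894776-123895025, minus strand): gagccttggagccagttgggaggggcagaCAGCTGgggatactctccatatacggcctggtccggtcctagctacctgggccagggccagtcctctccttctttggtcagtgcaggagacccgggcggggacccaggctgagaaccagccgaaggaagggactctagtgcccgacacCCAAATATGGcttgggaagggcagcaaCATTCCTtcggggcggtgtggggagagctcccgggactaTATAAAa
Actc1 (chr2:114052876-114053125, minus strand): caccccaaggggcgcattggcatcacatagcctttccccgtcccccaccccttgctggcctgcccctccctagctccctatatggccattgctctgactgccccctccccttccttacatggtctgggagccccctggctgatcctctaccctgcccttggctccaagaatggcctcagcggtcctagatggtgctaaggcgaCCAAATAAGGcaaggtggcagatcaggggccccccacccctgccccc
Myoz2 (chr3:123034988-123035237, minus strand): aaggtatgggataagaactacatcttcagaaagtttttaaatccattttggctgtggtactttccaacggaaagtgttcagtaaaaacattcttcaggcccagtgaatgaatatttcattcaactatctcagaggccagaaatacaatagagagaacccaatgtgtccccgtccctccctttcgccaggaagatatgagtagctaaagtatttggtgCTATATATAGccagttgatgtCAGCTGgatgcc
Mybpc1 (chr10:88605153-88605402, minus strand): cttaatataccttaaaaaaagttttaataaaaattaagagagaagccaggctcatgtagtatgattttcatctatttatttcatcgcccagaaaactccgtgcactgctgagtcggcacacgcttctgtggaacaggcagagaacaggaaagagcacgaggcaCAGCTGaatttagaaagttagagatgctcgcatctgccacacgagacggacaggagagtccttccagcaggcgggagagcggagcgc
Mybpc2 (chr7:44524670-44524919, minus strand): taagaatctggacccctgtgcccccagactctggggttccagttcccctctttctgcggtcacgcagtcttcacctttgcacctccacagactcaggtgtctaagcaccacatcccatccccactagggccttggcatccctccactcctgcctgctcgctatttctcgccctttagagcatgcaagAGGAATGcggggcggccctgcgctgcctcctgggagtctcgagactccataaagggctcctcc

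Both actin windows held a CArG box, which begins at position -73 in Acta1 and at -47 in Actc1, counted from the RefSeq start. The gene spans given here come from another annotation, GENCODE, whose gene ends differ from these starts. The whole window of Actc1 and the near end of that of Myoz2 lie inside those spans, so the positions depend on the start chosen. The capitals of Myoz2 mark a MEF2 site at -33 and CAGCTG at -12, the single match of Mybpc1 is CAGCTG at -87, and that of Mybpc2 is the M-CAT element at -63, read on the other strand. RefSeq gave 39 windows for 32 of the 43 genes. A CArG box was in 17.9% of these windows and in 1.47% of all 32851 windows, a MEF2 site in 20.5% and 2.92%, CAGCTG in 28.2% and 13%, CATTCCT in 10.3% and 4.51%, and TATAAA in 15.4% and 12.4%. The last of these can overlap a MEF2 site, as in 1 Dmd window. The CArG box was in windows of Acta1, Actc1, Dmd, Fhl1, Ldb3 and Myom1, of which Actc1 was higher in stretched skin and the other 5 lower, with the sign of Acta1 and Fhl1 turning with the scaling. A match is a description of the letters, not evidence of binding, and the motifs were chosen with the results known.

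The tropomyosins, which gate access of myosin to actin, were closer to level. Tpm1 had 32534 and 22000 counts (-0.28, -0.31 to -0.26), Tpm2 had 24887 and 20285 (-0.01, -0.04 to 0.01), and Tpm3, the slow-fibre form that other cells also use, had 3580 and 3588 (0.28, 0.22 to 0.35). Its value is uncertain, since 19% of the 76-base stretches of Tpm3 also occur elsewhere, mainly in the copy Tpm3-rs7. Neb, the giant protein along the thin filament, was near level with 10810 and 8264 counts (-0.11), and its sign and that of Tpm2 turn with the scaling.

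The proteins that cap or nucleate the pointed end of the filament also differed among themselves. Tmod4, the tropomodulin of skeletal muscle, was the lowest of the group with 599 and 313 counts (-0.66, -0.86 to -0.46). Tmod1 had 1405 and 1036 counts (-0.16), and 32.6% of its exon bases overlap Tstd2 on the other strand, so their reads could be mixed if strand was not used. Lmod2, a leiomodin of heart and skeletal muscle, was higher with 1063 and 1193 counts (0.45, 0.33 to 0.57). For Lmod3 the difference was not detectable at this depth, with 758 and 638 counts (0.03, -0.12 to 0.19).

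**Figure D3:**
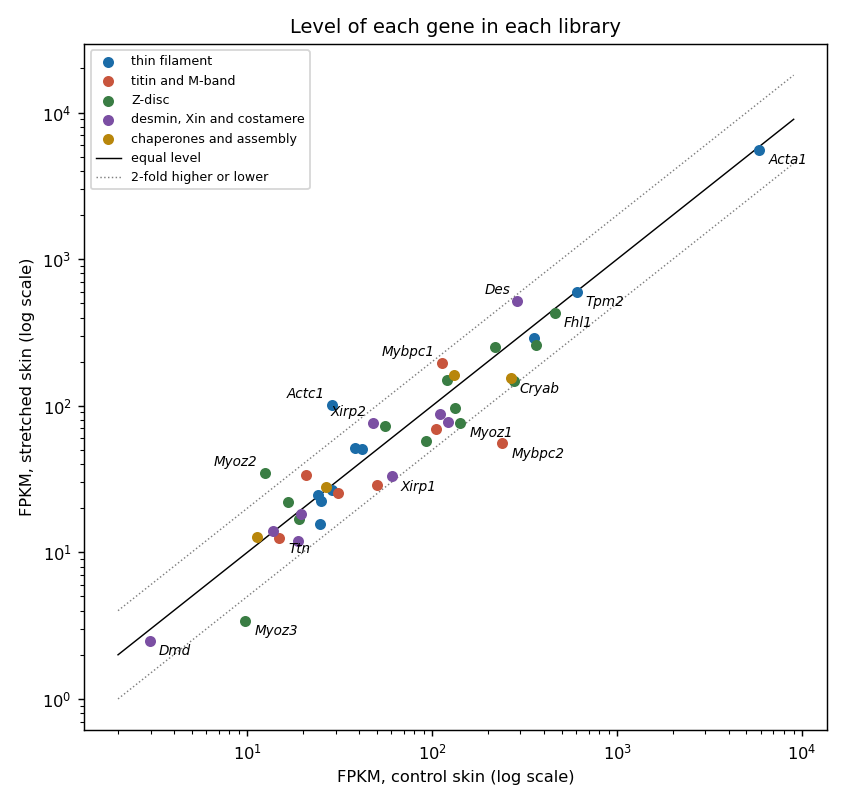
FPKM of each of the 43 genes in control skin (horizontal axis) and stretched skin (vertical axis), both on log scales, coloured by role group. The solid line marks equal levels and the dotted lines a 2-fold difference. Acta1 stands above the rest at 5881 and 5594 FPKM, and Mybpc2 lies farthest below the solid line, at 239 and 55.5 FPKM.

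Among titin and the M-band genes, 2 of 7 intervals lay above 0 and 5 below. Ttn, the molecular spring of the sarcomere, had 24521 and 16987 counts (-0.25, -0.28 to -0.22). The myosin-binding proteins, which bind the thick filament and tune cross-bridges, lay far apart. Mybpc2, the fast-fibre form, had 12215 and 2334 counts, or 239 and 55.5 FPKM, with a log2 ratio of -2.11 (-2.17 to -2.04). Mybpc1, the slow-fibre form, had 7221 and 10281 counts, or 113 and 195 FPKM, with a ratio of 0.79 (0.75 to 0.83). Mybpc2 was thus the more abundant in control skin and Mybpc1 in stretched skin. Mybph, a shorter relative, had 3443 and 1886 counts (-0.59, -0.67 to -0.51), but 49.9% of its exon bases overlap Adora1 on the other strand. Mybpc2 occupies bases 44501699 to 44524656 of chromosome 7, and 5.32% of its exon bases are overlapped by another gene.

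The myomesins differed among themselves too. Myom2, known as M-protein and found in fast fibres, had 6330 and 2954 counts (-0.82, -0.88 to -0.76). Myom1, present in all striated fibres, had 4601 and 3102 (-0.29, -0.35 to -0.22). Myom3, known from intermediate and slower fibres, had 1776 and 2370 (0.70, 0.61 to 0.79).

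Among the Z-disc genes, 5 of 13 intervals lay above 0 and 8 below. Of the alpha-actinins, which cross-link the ends of thin filaments, Actn3 is the form of fast fibres and Actn2 is made in all fibres. Actn3 had 14887 and 8804 counts (-0.48, -0.52 to -0.44) and Actn2 had 11724 and 11166 (0.21, 0.17 to 0.25). Actn3 was the more abundant in control skin, at 363 FPKM against 218, while in stretched skin they stood at 261 and 253 FPKM, an order that turns with the longest transcript, where Actn2 held 54.9% of the pair.

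The myozenins, also called calsarcins, tether the phosphatase calcineurin to alpha-actinin. Myoz2, the form of heart and slow fibres, had 602 and 1382 counts, or 12.4 and 34.7 FPKM, with a ratio of 1.48 (1.34 to 1.62). Myoz1, a fast-fibre form, had 3790 and 1688 counts, or 141 and 76.6 FPKM, with a ratio of -0.89 (-0.97 to -0.80). Myoz3, the other fast-fibre form, had 475 and 136 counts, or 9.77 and 3.40 FPKM, with a ratio of -1.52 (-1.81 to -1.25). Myoz1 remained the most abundant of them in both libraries. Myoz2 occupies bases 123006206 to 123035015 of chromosome 3 and shares no 76-base stretch with another gene.

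Several proteins that bind titin or alpha-actinin in the Z-disc were lower. Tcap, or telethonin, which joins the ends of titin molecules, had 3704 and 1622 counts (-0.91, -0.996 to -0.83). Ldb3, known as ZASP or cypher, had 7995 and 4111 (-0.68), and Myot, or myotilin, had 4171 and 2476 (-0.47). Nexn, an actin-binding Z-disc protein, was near level with 1030 and 755 counts (-0.17, -0.30 to -0.03).

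Csrp3, Pdlim3 and Synpo2l were higher. Csrp3, the muscle LIM protein, had 4531 and 4637 counts (0.31, 0.25 to 0.37), Pdlim3, the actinin-associated LIM protein, had 4041 and 4372 (0.39), and Synpo2l had 1091 and 1184 (0.40). Fhl1, a LIM protein abundant in skeletal muscle and also present in other tissues, had 24142 and 18672 counts (-0.09, -0.12 to -0.06), a value whose sign depends on the scaling.

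Of the 9 desmin, Xin and costamere genes, 2 intervals lay above 0, 5 below and 2 included 0. Des, the intermediate filament that ties neighbouring myofibrils together, was the most abundant of them. It had 15355 and 22724 counts, or 289 and 520 FPKM, with a ratio of 0.85 (0.82 to 0.88). Desmin is also made by smooth muscle and pericytes, and the part of smooth muscle, whose markers went both ways, was not tested.

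The Xin proteins, which bind actin at muscle attachment sites and at sites of fibre remodelling, were opposite to each other. Xirp1 had 4988 and 2240 counts (-0.87, -0.95 to -0.80) and Xirp2 had 8149 and 10604 (0.66, 0.62 to 0.70). Flnc, the muscle filamin and a binding partner of Xin, was on the side of Xirp1 with 16209 and 8548 counts (-0.64, -0.68 to -0.60). Nrap, a nebulin-related scaffold of myofibril ends, had 8614 and 5680 (-0.32), and Cmya5, or myospryn, had 3148 and 1657 (-0.65), with 21.7% of its exon bases overlapped by other genes.

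The dystrophin complex was close to level. Dmd, which encodes dystrophin, the link from actin to the membrane complex, had 997 and 694 counts (-0.24, -0.38 to -0.10) and the lowest level of the 43 genes, 2.96 and 2.50 FPKM. Sgca and Sgcb, which encode sarcoglycans of that complex, had 479 and 370 counts (-0.09, -0.29 to 0.11) and 792 and 658 counts (0.01, -0.14 to 0.16). Differences of the sarcoglycans were not detectable at this depth.

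Of the 4 chaperone and assembly genes, Klhl41, an adaptor that stabilises nebulin, was higher with 4686 and 4786 counts (0.31, 0.25 to 0.37). Unc45b, a myosin chaperone, had 717 and 662 counts (0.17, 0.01 to 0.32). Its partner Smyd1, a methyltransferase needed for myofibril assembly, had 1704 and 1472 (0.07, -0.03 to 0.17), a difference not detectable at this depth. Cryab, a small heat shock protein that protects desmin and titin, was lower with 5557 and 2658 counts (-0.78, -0.85 to -0.72), and 17% of its exon bases overlap Hspb2 on the other strand.

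Because genes of one family are measured in the same library, their ratio to each other does not depend on the scaling between libraries. It can depend on the mix of cells, since some of these genes, such as Tpm3, are also used outside muscle fibres. That part was not tested. The 9 families of the list gave 17 pairs of genes, some of which share a gene. For each pair the odds of one gene against the other in stretched skin were divided by those in control skin, with an exact conditional interval of the counts. Each pair is ordered so that its odds ratio lies above 1. The interval excluded 1 for all 17 pairs, which at these depths includes small shifts. Pairs of other genes with like counts were not examined, so this count has no background beside it. The odds ratios ran from 1.21 (1.18 to 1.24) for Tpm2 against Tpm1 to 8.02 (6.45 to 9.997) for Myoz2 against Myoz3.

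The widest shifts lay in the myozenins, the myosin-binding proteins and actin. The odds of Mybpc1 against Mybpc2 were 7.45 times as high in stretched skin (7.06 to 7.86), those of Myoz2 against Myoz1 5.15 times (4.60 to 5.77) and those of Actc1 against Acta1 3.70 times (3.38 to 4.05). In FPKM, Mybpc1 made up 24.7% of the myosin-binding protein family in control and 60.9% in stretched skin, while Mybpc2 made up 52.4% and 17.3%. Myoz2 made up 7.59% and 30.2% of the myozenins, and 12.4% and 43.1% in CPM, which takes no account of length.

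Intermediate shifts lay in the Xin and myomesin families. Xirp2 against Xirp1 gave 2.90 (2.73 to 3.07), and the share of Xirp2 was 44.3% in control and 69.8% in stretched skin. Myom3 against Myom2 gave 2.86 (2.65 to 3.09), and the share of Myom3 was 20.3% and 38.4%. Shares depend on the length used. With the longest transcript in place of all exons, Myom3 made up 13.4% and 27.3%, the smallest share in both libraries, and the share of Myom1, 30.4% and 29.0% with all exons, turned from lower to higher.

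Shifts were smaller in the remaining families. Actn2 against Actn3 gave 1.61 (1.55 to 1.67), Tpm3 against Tpm1 1.48 (1.41 to 1.56), Tmod1 against Tmod4 1.41 (1.20 to 1.66) and Lmod2 against Lmod3 1.33 (1.16 to 1.53). The shared stretches of Tpm3 and the overlap of Tmod1 given above make these 2 values less certain than their intervals.

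**Figure D4:**
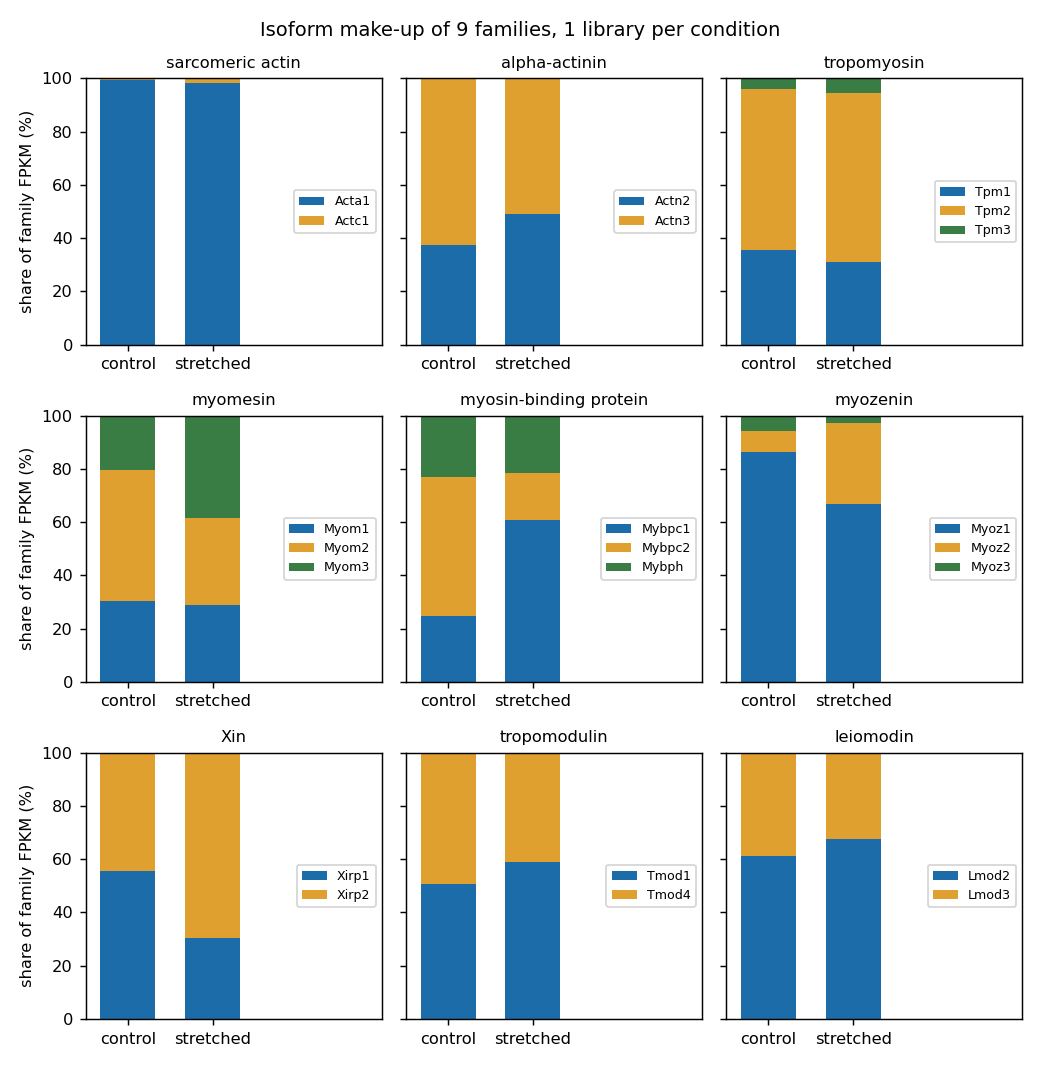
Share of each gene in the summed FPKM of its family (%, vertical axis) in control and stretched skin, 1 library each, for 9 families. The blue and yellow parts change most for the myosin-binding proteins, where Mybpc1 goes from 24.7% to 60.9% and Mybpc2 from 52.4% to 17.3%.

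Other genes of the same structures, outside the list of 43, were counted for comparison. Of 48 such genes, 18 had intervals above 0, 21 below and 9 included 0, with a median log2 ratio of -0.07. Over all genes measured, 18.1% of intervals lay above 0 and 33.5% below. By the fold rule 3 were upregulated and 1 downregulated, of 44 that passed the filter, where 2.61% and 2.43% of all genes were. Ankrd1, a titin-binding ankyrin repeat protein known to respond to load, had 423 and 1964 counts (2.50, 2.34 to 2.65). Its relative Ankrd2 had 2369 and 958 (-1.02, -1.14 to -0.92). The other upregulated genes were Pgm5, or aciculin, a costamere partner of filamin and Xin, with 246 and 461 counts (1.19, 0.96 to 1.42), and Hspb3, a small heat shock protein of muscle, with 62 and 152 (1.58, 1.14 to 2.02).

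Plec and Hspb1, each the most counted gene of its list, were nearer to level. Plec, or plectin, which links desmin to the Z-disc and is abundant in epidermis too, had 10855 and 10639 counts (0.25, 0.21 to 0.29). Hspb1, a small heat shock protein also made in epidermis, had 9099 and 6377 (-0.23).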

How the data were processed

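RNA-seq libraries of stretched and control skin were compared, 1 per condition. Per the study's methods, single-end reads of 76 bases passed a quality filter (FASTX-Toolkit) before alignment to the mm10 genome by TopHat2. Raw counts per gene symbol are what the authors deposited, and the counter, its annotation and its use of strand and shared reads are not given in the sources used here, so overlapping genes and near-identical copies are uncertain. Lengths, positions and overlaps came from GENCODE M21 (GRCm38): 23384 symbols matched by name, 670 by a synonym, and 367 had no length, while all 43 genes described matched.

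From the counts, CPM and FPKM (exon union) were computed. Counts of 3 or fewer were set to 3 in ratios, and this floor was 0.212 CPM in control and 0.258 CPM in stretched skin. Without replicates no test and no p-value was possible. Calls followed the fold rule of the methods, with 1 added to each FPKM, which the methods do not state. Genes named are all 43 listed genes, and of the other structural genes those called and the most counted of each list, of which 1 is not reported here. The genes and lists were chosen with earlier results of these data known, and the promoter motifs, the 1.5-fold rule and the minimum of 611 counts with the values seen.

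Alternatives were DESeq2 1.42.0's median of ratios, TMM and upper-quartile factors from edgeR 4.0.16, totals without the 50 most counted genes, scaling to muscle markers, pseudocounts of 0 and 0.1, other EV filters, CPM for FPKM, the longest transcript, 1 CPM added, a minimum of 20 counts, GC and length correction in 20 bins, and leaving out genes sharing 10% or more of their 76-base stretches. The calculation of calls and intervals was run on simulated counts that hold counting error alone, which cannot test variation between mice. Python 3.11.15, numpy 2.4.6, pandas 2.3.3, scipy 1.17.1, matplotlib 3.10.9 and R 4.3.3 were used.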

Additional observations from a re-analysis of the deposited data

How the results depend on the processing

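The 2 upregulated and 2 downregulated genes remained the same genes in the alternatives in which calls were made, except those named here. Calls were not repeated with 1 CPM added, a minimum of 20 counts or the GC and length correction. Against the summed mature muscle markers, whose sum was lower in stretched skin, 9 genes were upregulated and 1 downregulated, 32 intervals lay above 0 and 7 below, and the median was 0.57, where 1127 of all genes were upregulated (285 with totals) and the median of all genes was 0.55. Without Myh4 among the markers, an alternative chosen after seeing the data, 4 genes were upregulated, 24 intervals lay above 0 and 14 below, and the median was 0.19, with 477 of all genes upregulated and a median of all genes of 0.18. With a product of FPKM above 100, 1 gene was downregulated, since Myoz3 falls under that threshold. The median, -0.11 with totals, was -0.0036 with TMM, -0.0048 with upper quartile, -0.042 without the 50 most counted genes and 0.0041 with the median of ratios. Odds ratios within families use no length or total and cannot move with them.

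Log2 ratios of single genes with an interval below 0 that turned above 0 follow the shift of each scaling, and Tpm2 and Sgca, whose intervals include 0, also turned under each scaling named in this paragraph. Under TMM, the median of ratios and the upper quartile, in that order, these were Acta1 (0.031, 0.039, 0.030) and Fhl1 (0.013, 0.021, 0.012), and with the median of ratios also Neb (0.0041). Against the muscle markers they were Acta1 0.60, Tpm1 0.39, Neb 0.57, Tmod1 0.52, Tmod4 0.018, Ttn 0.43, Myom1 0.39, Mybph 0.086, Actn3 0.20, Myot 0.20, Fhl1 0.58, Nexn 0.51, Nrap 0.35, Flnc 0.032, Cmya5 0.029 and Dmd 0.43. Without Myh4 among the markers they were Acta1 0.22, Tpm1 0.012, Neb 0.19, Tmod1 0.14, Ttn 0.047, Myom1 0.0080, Fhl1 0.21, Nexn 0.13 and Dmd 0.054. No paired analysis was possible because each condition has a single library, so leaving one out was impossible too. Depth leaves the sign of Lmod3, Sgca, Sgcb and Smyd1 undecided, as it does for Tpm2, since their intervals include 0.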
